A study of Homo sapiens with 12 samples.

Results

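The genes described here encode 8 proteins that bind AU-rich or stem-loop elements in messenger RNAs and set how fast those messengers are destroyed: ZFP36, ZFP36L1, ZFP36L2, ZC3H12A, ZC3H12C, HNRNPD, KHSRP and ELAVL1. They were chosen by name, with earlier results of these data known. Each was read from the array feature that the platform annotation assigns to that gene alone. Each of the 8 had 1 such feature, among 18417 genes measured in all. RNA came from MDA-MB-231, a human cell line of triple-negative breast cancer in wide laboratory use. Parental cells were set beside TTR cells, a subline named for treatment to resistance. Each form was profiled untreated and after TRAIL, a death ligand of the tumour necrosis factor family, at 100 ng per ml for 2 hours. This gave the groups parental untreated, parental with TRAIL, TTR untreated and TTR with TRAIL, with 3 arrays each and 12 in all. The labels do not state which agent the TTR cells were made resistant with, whether they are 1 clone, or whether the replicates were separate cultures, so a p-value here reflects the spread from array to array, which may be technical.

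AU-rich elements are stretches of adenosine and uridine in the tails of short-lived messengers, many of which encode cytokines, chemokines and growth regulators. ZFP36 (tristetraprolin) and its relatives ZFP36L1 and ZFP36L2 bind such stretches with paired zinc fingers and recruit the deadenylase complex that starts decay. ZC3H12A (regnase-1) and its relative ZC3H12C are endonucleases, and ZC3H12A cuts stem-loops in inflammatory messengers. HNRNPD (AUF1) and KHSRP also bind AU-rich messengers and are mainly known for speeding their decay, whereas ELAVL1 (HuR) protects them. ZFP36 and ZC3H12A are known as feedback genes that are switched on by the inflammatory signals whose messengers they remove.

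Promoter sequence is shown for 3 members whose transcripts rose with TRAIL in parental cells. RefSeq windows on GRCh38.p14 were matched for 6 of the 8 members (all but ZFP36L2 and ELAVL1), 8 windows in all, and the 250 bases before each start were searched on both strands. The motifs were TGACG (the core of a cyclic AMP response element), GGGCGG (Sp1), TGANTCA (AP-1), the NF-kB consensus and the SRF CArG box. Capitals mark each TGACG and each GGGCGG on either strand, and the windows are written 5′ to 3′ on the gene's own strand.
ZFP36, plus strand, chr19:39406597-39406846: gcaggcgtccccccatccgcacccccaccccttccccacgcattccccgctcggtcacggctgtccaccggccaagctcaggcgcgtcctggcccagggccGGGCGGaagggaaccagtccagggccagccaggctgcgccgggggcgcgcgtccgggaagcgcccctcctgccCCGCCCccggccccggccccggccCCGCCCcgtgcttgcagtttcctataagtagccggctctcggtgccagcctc
ZC3H12A, plus strand, chr1:37474330-37474579: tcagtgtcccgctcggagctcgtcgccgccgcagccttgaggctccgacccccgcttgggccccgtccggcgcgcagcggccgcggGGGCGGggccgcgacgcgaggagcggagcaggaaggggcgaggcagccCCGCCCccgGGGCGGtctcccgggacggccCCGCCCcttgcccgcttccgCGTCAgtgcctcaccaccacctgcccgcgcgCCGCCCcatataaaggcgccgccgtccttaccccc
ZFP36L1, minus strand, chr14:68793417-68793666: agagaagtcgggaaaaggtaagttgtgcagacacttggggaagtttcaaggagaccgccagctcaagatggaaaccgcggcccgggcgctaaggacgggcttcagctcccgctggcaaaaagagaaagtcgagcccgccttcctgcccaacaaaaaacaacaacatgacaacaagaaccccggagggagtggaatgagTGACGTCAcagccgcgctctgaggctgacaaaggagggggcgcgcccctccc
The ZFP36 window held 3 GGGCGG matches, which 42.6% of the 35116 RefSeq windows of this length also hold at least once. The ZC3H12A window held 5, and 1 TGACG, a motif found in 21.2% of windows. ZFP36L1 had 2 windows. In the one shown, a pair of overlapping TGACG matches on opposite strands lay 52 and 49 bases before the start, and the other held 1. Members that did not rise in parental cells held these motifs too: 1 TGACG and 1 GGGCGG for HNRNPD, 1 and 2 for KHSRP, and 1 and 2 over both windows of ZC3H12C. TGANTCA, the NF-kB consensus and the CArG box had 0 matches in all 8 windows of the members, against 6.57%, 5.21% and 1.16% of all windows, which says only that these letters are not in these stretches. GC made up 76.4% of the ZFP36 window, 78.8% of the ZC3H12A window and 58.4% of the ZFP36L1 window.

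Values are log2 signals from RMA, a method that scales arrays jointly, so each value also depends on other features and arrays. The 3 parental arrays with TRAIL stood apart: their median over all features was 4.58 to 4.61, against 4.24 to 4.31 on the 6 untreated arrays and 4.38 to 4.40 on the TTR arrays with TRAIL. With TRAIL the median feature was thus higher by 0.29 in parental and 0.11 in TTR cells, so many changes are also given after centring each array on its median. In parental cells the shift was not uniform. The lower quartile was 2.98 to 3.05 with TRAIL against 2.84 to 2.89 untreated, but the upper quartile was 6.545 to 6.593 against 6.649 to 6.691. The median change over the 18417 genes was 0.05. Centring moves every gene alike, so it is an alternative reading and not a correction known to fit genes of high signal. The mesenchymal markers VIM (group means 11.4 to 11.8) and CD44 (10.3 to 11.4) had high signals, as did the luminal keratin KRT8 (10.40 to 10.95). The hormone receptors ESR1 (3.55 to 3.77) and PGR (2.38 to 2.77), the epithelial cadherin CDH1 (2.97 to 3.28), the mesenchymal marker SPARC (3.97 to 4.62) and the blood marker PTPRC (2.14 to 2.44) had low ones. Of 8 mesenchymal markers 6 fell and 2 rose with TRAIL in parental cells, by the calls defined below, against 29.9% and 28.9% of all genes. The log2 of the summed signal of these markers was 13.069 to 13.205 with TRAIL against 13.437 to 13.600 untreated. The part of the markers in the results was not tested. In RNA from whole cultures, fewer cells of a kind and less RNA per cell cannot be told apart. Differences are called at an adjusted p under 0.05 (limma over all 18417 genes, Benjamini-Hochberg), and each ± gives a standard error of that fit, with n = 3 arrays per group.

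In parental cells TRAIL raised the 3 ZFP36 family transcripts and ZC3H12A and lowered ELAVL1 and ZC3H12C, whereas HNRNPD and KHSRP did not pass the test. The calls came to 4 of 8 members higher and 2 lower. The background was wide, since 58.8% of all genes were called in this comparison, 28.9% higher and 29.9% lower. Higher calls were 49.1% of all calls, 21.3% after median centring and 37.9% after quantile normalization. Without overlap between the groups, 4 members were higher and 1 lower, against 31.2% and 31% of all genes. The median change of the 8 members was 0.59, against 0.05 over all genes tested.

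ZFP36 (array feature 8028652), the decay factor that is best known as an early response gene, had the largest change of the 8. Its signal was 5.226, 5.160 and 4.875 on the untreated parental arrays and 9.543, 9.630 and 9.154 with TRAIL. In TTR cells it was 5.512, 5.500 and 5.130 untreated and 7.858, 7.924 and 7.344 with TRAIL. All TRAIL arrays of either line lay above all untreated arrays, and the TTR arrays with TRAIL lay below the parental arrays with TRAIL. The rise was 20.5-fold in parental cells (4.35 ± 0.17, adjusted p = 5.42e-12), or 4.06 after median centring. In TTR cells it was 5.02-fold (2.33 ± 0.17, adjusted p = 1.37e-07). On the log2 scale the TTR change was 53.5% of the parental one.

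ZFP36L2 (feature 8051814), a relative that shares the paired zinc fingers, also rose in both lines, with smaller steps. The untreated parental arrays read 7.730, 7.632 and 7.538 and those with TRAIL 10.146, 10.319 and 9.694. Untreated TTR arrays read 7.372, 7.314 and 7.043, and TTR arrays with TRAIL 8.315, 8.070 and 8.110. No 2 groups overlapped, and the lowest were the untreated TTR arrays. The rise was 5.35-fold in parental cells (2.42 ± 0.14, adjusted p = 6.31e-10) and 1.90-fold in TTR cells (0.92 ± 0.14, adjusted p = 8.52e-04), the latter 38.1% of the former on the log2 scale. After median centring these were 2.13 and 0.82.

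ZFP36L1 (feature 7979813), the third of the family, moved least. It read 8.495, 8.649 and 8.239 untreated and 9.358, 9.641 and 9.517 with TRAIL in parental cells, with no overlap. In TTR cells it read 9.156, 8.844 and 8.572 untreated and 9.548, 9.125 and 9.153 with TRAIL, and here the groups overlapped. The rise in parental cells was 2.06-fold (1.04 ± 0.15, adjusted p = 1.92e-05), or 0.75 after median centring. The difference in TTR cells was 0.42 ± 0.15 and did not pass (adjusted p = 0.126, 95% confidence interval 0.09 to 0.74). It passed without TTR untreated array 1 (0.57, adjusted p = 0.0359) and with array weights (0.43, adjusted p = 0.0276), within a range of adjusted p over all alternatives of 0.017 to 0.431.

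ZC3H12A (feature 7900146), the endonuclease regnase-1, had the smallest standard error of the fit among the members that rose. Its signal was 6.022, 6.060 and 6.267 on untreated parental arrays and 9.257, 9.212 and 9.342 with TRAIL. In TTR cells it was 5.892, 5.960 and 5.959 untreated and 7.797, 8.041 and 7.761 with TRAIL. The 4 groups did not overlap. TRAIL raised it 8.90-fold in parental cells (3.15 ± 0.10, adjusted p = 8.61e-13) and 3.81-fold in TTR cells (1.93 ± 0.10, adjusted p = 2.66e-09), where the change was 61.2% of the parental one on the log2 scale. After median centring the changes were 2.86 and 1.82. In each line ZC3H12A ranked among the 30 smallest p-values of the 18417 genes, 28th in parental and 18th in TTR cells, and ZFP36 ranked 53rd and 29th.

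The paralog ZC3H12C (feature 7943715) went the other way in parental cells. It read 6.942, 7.143 and 7.301 untreated and 6.524, 6.115 and 6.995 with TRAIL, and the highest TRAIL array overlapped the lowest untreated one. In TTR cells it read 7.335, 7.239 and 7.447 untreated and 7.315, 7.358 and 7.462 with TRAIL, with the groups mixed. The fall in parental cells was 1.50-fold (−0.58 ± 0.16, adjusted p = 0.0058). It was −0.87 after median centring and −0.46 after a further quantile normalization (adjusted p = 0.0483). Without parental TRAIL array 2, the lowest, it was −0.37 (adjusted p = 0.0371). The TTR value was 0.04 (95% confidence interval −0.31 to 0.39), and −0.069 after median centring.

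ELAVL1 (feature 8033479), which shields AU-rich messengers from decay, fell in parental cells. It read 7.452, 7.438 and 7.349 untreated and 6.585, 6.021 and 6.213 with TRAIL, with a wide gap between the groups. In TTR cells it read 7.582, 7.374 and 7.377 untreated and 7.478, 7.293 and 7.111 with TRAIL, with overlap. The fall in parental cells was 2.20-fold (−1.14 ± 0.13, adjusted p = 1.43e-06), or −1.43 after median centring. In TTR cells the difference was −0.15 ± 0.13 (adjusted p = 0.589, 95% confidence interval −0.43 to 0.13).

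HNRNPD (feature 8101324) and KHSRP (feature 8033162), 2 decay-promoting binders of AU-rich messengers, had no call for TRAIL in either line. HNRNPD ranged from 9.968 to 10.813 over the 12 arrays and every pair of groups overlapped. Its difference was −0.15 ± 0.16 in parental cells (95% confidence interval −0.49 to 0.20) and 0.22 ± 0.16 in TTR cells (−0.12 to 0.57). KHSRP ranged from 8.109 to 8.891, with differences of 0.13 ± 0.14 (−0.17 to 0.43) and 0.28 ± 0.14 (−0.02 to 0.58). Scaling mattered for this pair in parental cells. HNRNPD passed after median centring (−0.44, adjusted p = 0.0311, range over alternatives 0.0311 to 0.864). KHSRP stood at −0.16 after median centring and passed after quantile normalization (0.37, adjusted p = 0.0365, range 0.0365 to 0.779).

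**Figure D1:**
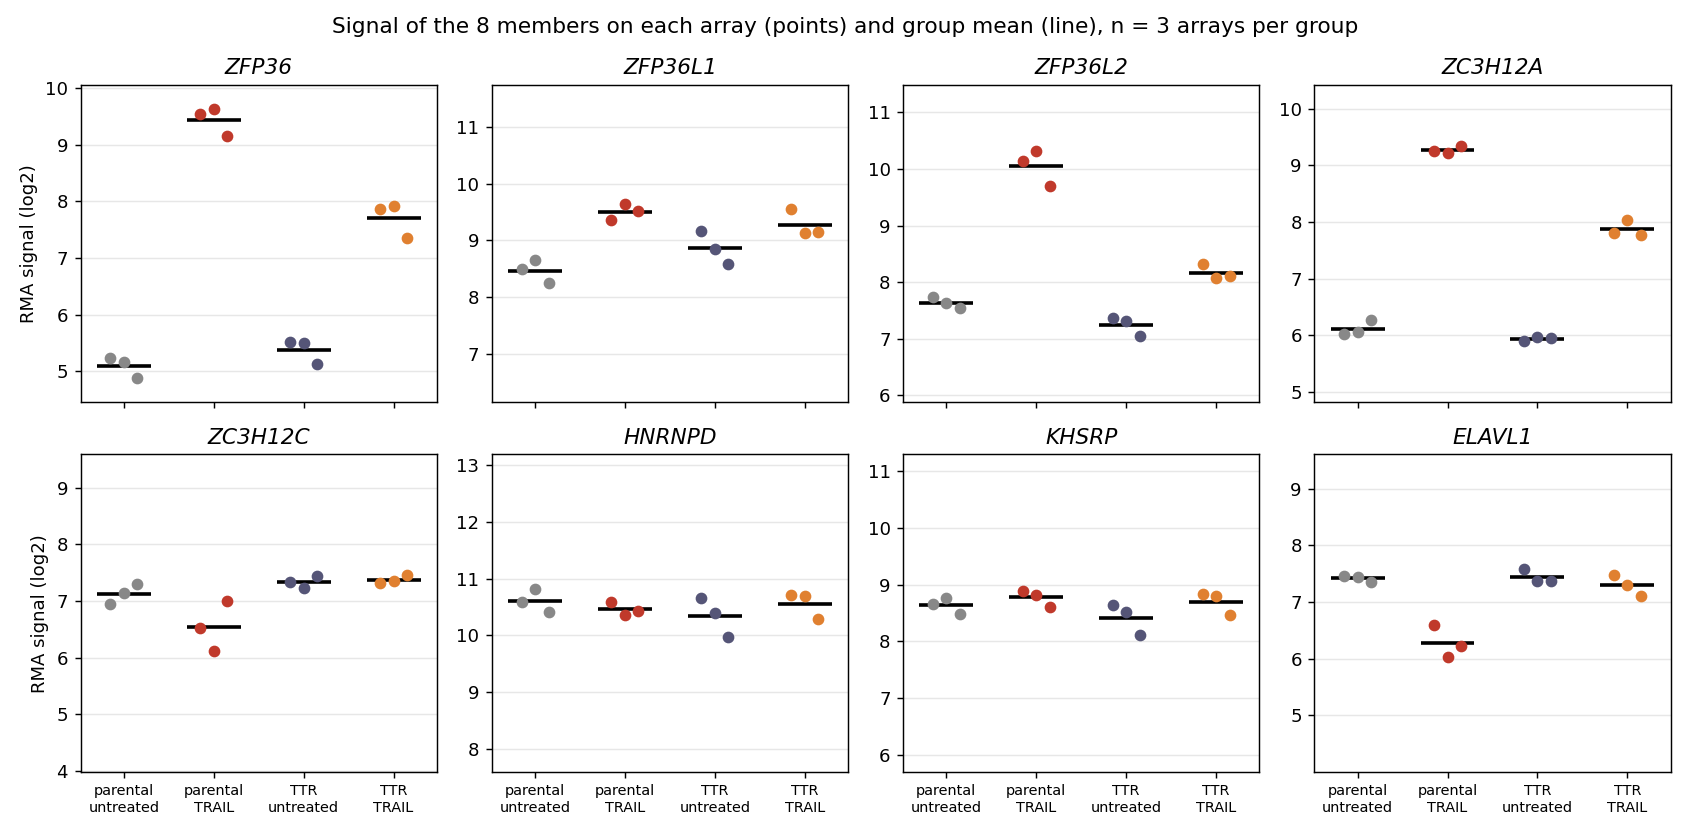
RMA signal (log2, vertical axis, the same span in each panel) of the 8 genes on every array, by group (horizontal axis), with points for arrays and a line for the mean of 3. ZFP36, ZFP36L2 and ZC3H12A are highest in parental cells with TRAIL and next in TTR cells with TRAIL, ELAVL1 is lowest in parental cells with TRAIL, and HNRNPD and KHSRP overlap between groups.

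In TTR cells TRAIL raised 3 of the 8 members, ZFP36, ZC3H12A and ZFP36L2, and lowered 0 by limma, where 5.82% of all genes were called, 3.27% higher and 2.55% lower. Higher calls were 56.2% of all calls, and 18.7% after median centring. At an unadjusted p under 0.05 it was 4 higher and 0 lower, a threshold that at least 3643 of all 18417 genes met in either direction. The median change of the members was 0.35, against −0.01 over all genes. Arrays of the same number in this line had deviations from the group means that correlated at 0.146 to 0.395 across genes. When the replicate number entered as a block and these groups alone were fitted, 5 members were higher, with ZFP36L1 (0.42, adjusted p = 0.017) and KHSRP (0.28, adjusted p = 0.0498) added, and 14.5% of all genes were called. The changes between arrays of one number were 0.392, 0.281 and 0.580 for ZFP36L1 and 0.205, 0.279 and 0.354 for KHSRP.

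The change with TRAIL in TTR cells less that in parental cells was itself tested. This difference passed for 6 of the 8 members, 4 below 0 and 2 above, where 37.2% of all genes were called, 14.3% below 0 and 22.9% above. Values above 0 were 61.6% of all calls, and 80.9% after median centring. The value was −2.03 ± 0.23 for ZFP36 (adjusted p = 6.13e-06), −1.50 ± 0.20 for ZFP36L2 (adjusted p = 2.30e-05) and −1.22 ± 0.14 for ZC3H12A (adjusted p = 7.45e-06). These 3 transcripts rose in both lines and rose less in TTR cells. ELAVL1 stood at 0.99 ± 0.19 (adjusted p = 5.45e-04), since it fell in parental cells and had no call in TTR cells. After median centring the 4 values were −1.84, −1.31, −1.04 and 1.17, and each passed in all 19 alternatives.

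The differences for the other 2 members that passed were closer to the threshold. ZFP36L1 stood at −0.63 ± 0.22 (adjusted p = 0.0321) and ZC3H12C at 0.62 ± 0.23 (adjusted p = 0.0452). ZFP36L1 lost its call after median centring (−0.44, adjusted p = 0.126). The same happened when array 1 or 3 of untreated parental cells, array 2 or 3 of parental cells with TRAIL, array 1 or 2 of untreated TTR or array 2 or 3 of TTR with TRAIL was left out, where the value was −0.64 to −0.48 and the adjusted p up to 0.086. ZC3H12C lost its call after quantile normalization (0.49, adjusted p = 0.172) and when array 2 or 3 of untreated parental cells, array 1 or 2 of parental cells with TRAIL, array 1 or 2 of untreated TTR or any 1 array of TTR with TRAIL was left out. Without parental TRAIL array 2 it was 0.41 (adjusted p = 0.112). HNRNPD (0.37 ± 0.23, 95% confidence interval −0.12 to 0.85) and KHSRP (0.15 ± 0.20, −0.28 to 0.57) did not pass, and KHSRP was at −0.052 after quantile normalization.

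**Figure D2:**
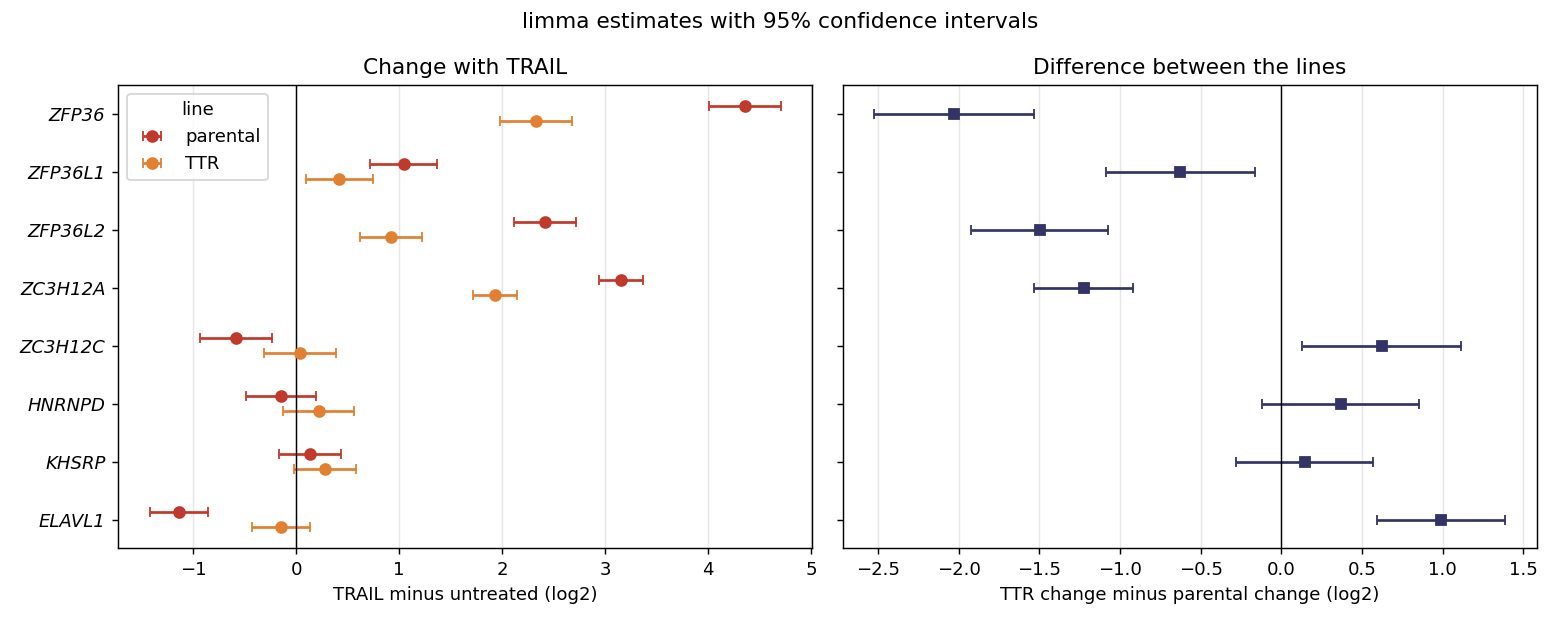
limma estimates (points) with 95% confidence intervals (bars) on the log2 scale for the 8 genes: on the left the change with TRAIL in each line, on the right the TTR change minus the parental change. ZFP36, ZFP36L2 and ZC3H12A lie to the right of 0 in both lines and to the left of 0 in the difference, from −2.03 to −1.22, and ELAVL1 lies at −1.14 in parental and −0.15 in TTR cells.

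Without TRAIL, no member was called between the lines by limma (0 of 8, against 7.11% of all genes, 3.64% higher and 3.47% lower). At an unadjusted p under 0.05, which at least 3415 of all 18417 genes met in either direction, 1 member was higher and 1 lower. These were ZFP36L1, at 0.40 ± 0.15 in TTR minus parental cells (adjusted p = 0.154), and ZFP36L2, at −0.39 ± 0.14 (adjusted p = 0.122). The 3 untreated TTR arrays of ZFP36L2 all lay below the parental ones, and those of ZC3H12A did too (−0.18 ± 0.10, adjusted p = 0.385). No overlap with TTR lower was seen in 12.5% of all genes. ZFP36L2 passed without parental TRAIL array 3 in the fit (adjusted p = 0.0445), without all 3 parental TRAIL arrays (adjusted p = 0.04) and with array weights (−0.37, adjusted p = 0.0437), within a range of 0.028 to 0.358. ZFP36 was at 0.29 (95% confidence interval −0.06 to 0.64), ELAVL1 at 0.03 (−0.25 to 0.31), ZC3H12C at 0.21 (−0.14 to 0.56), HNRNPD at −0.26 (−0.61 to 0.08) and KHSRP at −0.22 (−0.52 to 0.08). Sample descriptions carry a code, whose meaning the labels do not give, that differs between parental and TTR samples, so any effect of it and of the line cannot be told apart. Another stretch of the code is shared by the arrays of one number across the groups, apart from a leading zero in 1 sample, and the labels do not say whether it marks a batch. With the replicate number as a block, ZFP36L2 passed between untreated lines over all arrays (adjusted p = 0.0431), and ZFP36L2 (0.028) and ZFP36L1 (0.0493) passed with these groups alone.

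With TRAIL in both lines, TTR cells held less of 3 members and more of 2, where 54.4% of all genes were called, 26.4% lower and 28.0% higher. Higher calls were 51.6% of all calls, and 74.1% after median centring. ZFP36L2 was 3.70-fold lower (−1.89 ± 0.14, adjusted p = 1.53e-08), ZFP36 3.33-fold lower (−1.73 ± 0.17, adjusted p = 1.92e-07) and ZC3H12A 2.65-fold lower (−1.40 ± 0.10, adjusted p = 1.12e-08). ELAVL1 was 2.03-fold higher (1.02 ± 0.13, adjusted p = 6.52e-06) and ZC3H12C 1.78-fold higher (0.83 ± 0.16, adjusted p = 4.05e-04). None of these 5 overlapped between the lines, a state seen in 30.5% of all genes with TTR lower and 29.7% with TTR higher, and the 5 calls held in all 21 alternatives. Over these, median centring among them, values ran from −2.07 to −1.69 for ZFP36L2, −1.90 to −1.53 for ZFP36 and −1.57 to −1.20 for ZC3H12A. For ELAVL1 they ran from 0.90 to 1.22 and for ZC3H12C from 0.62 to 1.06. ZFP36L1 (−0.23, 95% confidence interval −0.56 to 0.10), HNRNPD (0.10, −0.24 to 0.45) and KHSRP (−0.08, −0.38 to 0.22) did not pass. This comparison shares its arrays with those above and adds no independent evidence to them.

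The genes whose profile over the 12 arrays lay nearest to each member were found from the root mean square difference, after each gene was centred on its own mean. The nearest to ZFP36 were JUN (0.19), an AP-1 subunit, and the stress kinase PLK3 (0.30), against 1.79 for the spread of ZFP36 itself about its mean. PLK3 (0.24) was also near ZC3H12A, behind RNVU1-19 (0.12), a variant U1 small nuclear RNA of a multicopy family whose signal is uncertain. ZFP36L2 lay nearest to the laminin subunit LAMA5 (0.16) and the small nucleolar RNA SNORD30 (0.20), and ZFP36L1 to the transcription factor RUNX1 (0.14) and to NAV2 (0.15). Nearest to ELAVL1 were the proteasome subunit PSMB2 (0.08) and TPM3P9 (0.08), a pseudogene feature whose signal is uncertain, and nearest to ZC3H12C were FGFR1OP2 (0.12) and FAM13B (0.12). HNRNPD had HDLBP and GPATCH8 (0.09 each), and KHSRP TRIM8 (0.07) and SNRPD3 (0.08), but these members varied by only 0.22 and 0.21 about their means. After quantile normalization 1 of the 2 nearest genes was replaced for 5 members, among them ZFP36, where IER2 took the place of PLK3. These profiles share their arrays, and the distances are a description.

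Other genes of the same pathway were read from 4 lists. These lists were drawn up with earlier results of these data known, so their counts beside the shares of all genes are a description. Among 18 further proteins that bind AU-rich or stem-loop elements, 6 rose, 7 fell and 5 did not pass with TRAIL in parental cells. Of all genes 28.9% rose and 29.9% fell. The list median was 0.03, against 0.05 over all genes. Median centring lowers every gene by the same 0.29 in this comparison, which keeps that gap, and the list median became −0.26. After centring 2 were higher and 10 lower, where 10936 of all 18417 genes were called, 2328 of them higher. HNRNPDL, a close relative of HNRNPD, rose 2.41-fold (1.27 ± 0.13, adjusted p = 2.98e-07). RC3H2 (roquin-2), which binds stem-loops in inflammatory messengers, fell 2.29-fold (−1.19 ± 0.10), and FXR1, an RNA-binding relative of the fragile X protein, fell 1.98-fold (−0.99 ± 0.11). In TTR cells 2 of the 18 rose and 0 fell by limma, against 3.27% and 2.55% of all genes. The 2 were HNRNPDL (0.51 ± 0.13, adjusted p = 0.0321) and FUBP1 (0.35 ± 0.09, adjusted p = 0.0396), the second named after its value was seen. At an unadjusted p under 0.05, met by at least 3643 of all 18417 genes in either direction, 3 were higher and 0 lower. The number called was 0 after median centring and also when array 2 or 3 of untreated TTR or array 1 or 2 of TTR with TRAIL was left out. It was 1 when parental untreated array 1 or 3 or array 3 of TTR with TRAIL was left out. Over all genes 1072 were called here, against 2391 after median centring and 379 to 1487 with 1 array left out.

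A list of 18 kinases, phosphatases, proteases and related factors upstream of these regulators had 16 measured genes, without MAPK14 and TAB1. Of the 16, 2 rose and 12 fell in parental cells, against 28.9% and 29.9% of all genes. The list median was −0.54, against 0.05 over all genes. It was −0.83 after median centring, which lowers every gene by the same 0.29 here. DUSP1, the phosphatase that switches off stress-activated MAP kinases, rose 19.6-fold (4.29 ± 0.17, adjusted p = 7.96e-12), and MAPK11 rose by 0.49 ± 0.14, the latter named after its value was seen. PPP2CA, the catalytic subunit of protein phosphatase 2A, which dephosphorylates ZFP36, fell 3.30-fold (−1.72 ± 0.12, adjusted p = 3.10e-09). TAB2, an adaptor of the kinase MAP3K7, fell 2.56-fold (−1.36 ± 0.10, adjusted p = 5.24e-09). In TTR cells DUSP1 alone of the 16 passed (2.48 ± 0.17, adjusted p = 7.41e-08), where 3.27% of all genes rose and 2.55% fell. PPP2CA was at −0.19 there and TAB2 at −0.14. The difference between the lines passed for DUSP1 (−1.82), PPP2CA (1.53) and TAB2 (1.22). It passed for 10 of the 16, 9 above 0 and 1 below, against 22.9% and 14.3% of all genes.

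The machinery that carries out the decay had 31 measured genes, of deadenylases, decapping factors, exosome subunits, the nucleases XRN1 and DIS3 and the helicase UPF1. In parental cells 23 of them fell, 5 rose and 3 did not pass, against 29.9% and 28.9% of all genes that fell and rose. The list median was −0.70, against 0.05 over all genes. It was −0.99 after median centring, which lowers every gene by the same 0.29 here. The deadenylase subunits CNOT8 (−1.89 ± 0.11, adjusted p = 8.16e-10) and CNOT6L (−1.80 ± 0.10, adjusted p = 4.71e-10) and the exosome subunit EXOSC1 (−1.79 ± 0.11, adjusted p = 1.33e-09) had the smallest p-values. The largest fall, named after its value was seen, was that of the deadenylase subunit CNOT7 (−2.77 ± 0.22, adjusted p = 1.68e-08). The 5 that rose, named after their values were seen, were PAN2 (0.99), EXOSC6 (0.70), CNOT3 (0.59), EDC4 (0.53) and UPF1 (0.42). UPF1 is the helicase with which regnase-1 works. After median centring 2 of the 31 were higher and 26 lower, where 10936 of all 18417 genes were called, 2328 of them higher. In TTR cells 4 fell and 1 rose, against 2.55% and 3.27% of all genes, with a median of −0.11. CNOT8 was at −0.53 ± 0.11 (adjusted p = 0.0127), CNOT6L at −0.44 ± 0.10 (adjusted p = 0.0209) and EXOSC1 at −0.41 ± 0.11 (adjusted p = 0.0442), while DCP1B (−0.57) and PAN2 (0.57) were named after their values were seen. EXOSC1 lost its call when any 1 of the TTR arrays or of the untreated parental arrays was left out (adjusted p 0.0529 to 0.166). CNOT6L lost it without untreated TTR array 2 or 3 or array 1 or 2 of TTR with TRAIL (0.064 to 0.123), and CNOT8 without array 3 and array 2 of those groups (0.0522 and 0.0853). The 5 calls became 10 after median centring, 12 with array weights, 2 and 1 without untreated TTR array 2 and 3, and 2, 1 and 3 without array 1, 2 and 3 of TTR with TRAIL. With arrays of one number paired and these groups alone fitted, 8 were lower and 3 higher, 11 in all. Calls over all genes swung widely too, from 1072 to 2391 after median centring and 379 to 1487 with 1 array left out. They also rose with array weights and with pairing, as given further below, so these swings are not particular to this list. The difference between the lines passed for 21 of the 31, 20 above 0 and 1 below, against 22.9% and 14.3% of all genes, the last being EXOSC6 (−0.72), named after its value was seen.

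The fourth list held 33 measured transcripts that are known to carry AU-rich or regnase-type elements, such as those of chemokines, AP-1 subunits and cytokines. In parental cells 27 rose, 1 fell and 5 did not pass, against 28.9% and 29.9% of all genes that rose and fell (median 1.78, and 1.49 after median centring). In TTR cells 23 rose and 0 fell by limma, against 3.27% and 2.55% of all genes (median 1.15, and 1.05 after median centring). At an unadjusted p under 0.05, met by at least 3643 of all 18417 genes in either direction, 0 were lower too. FOS (6.17 ± 0.14), FOSB (6.15 ± 0.13) and EGR1 (5.28 ± 0.12) had the smallest p-values in parental cells and stood at 4.53, 3.51 and 4.90 in TTR cells. HIF1A, named after its value was seen, was the transcript that fell (−1.08 ± 0.13). The difference between the lines passed below 0 for 19 and above 0 for 2 of the 33, against 14.3% and 22.9% of all genes, and did not pass for 12. The 2 above 0 were HIF1A (0.97) and TNFAIP3 (0.73, adjusted p = 0.0488), both named after their values were seen. Decay itself was not measured, and the rates of synthesis and decay behind each level cannot be told apart here.

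**Figure D3:**
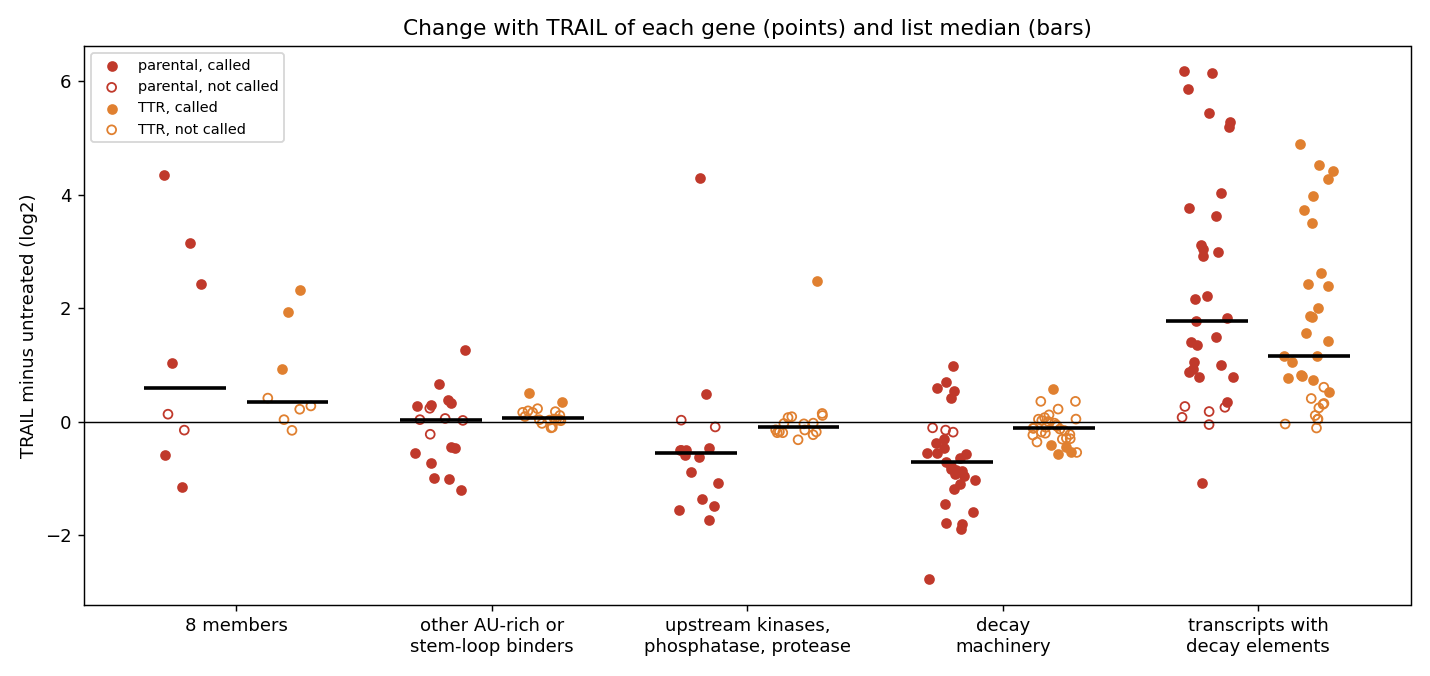
Change with TRAIL (log2, vertical axis) of each gene in the 8 members and the 4 related lists (horizontal axis), in parental and TTR cells, with filled points for genes called by limma, open points for the others and bars for list medians. Decay machinery genes have a median of −0.70 in parental and −0.11 in TTR cells, and transcripts with decay elements 1.78 and 1.15.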

How the data were processed

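The authors deposited 1 table of log2 values for 33252 array features and, per the submitters' processing notes, made it with RMA in Affymetrix Power Tools. The sources used here give no version, setting or genome build. Of the features, 19460 named 1 gene, 1754 several and 12038 none. For a gene with several features, that with the highest mean was kept, giving 18417 genes, and 0 symbols changed against RefSeq. No detection measure was used, so low signals can be background. No 2 arrays were identical (0 pairs), and 0 columns lacked a sample.

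All 12 arrays entered 1 model in R 4.3.3 (lmFit and eBayes of limma 3.58.1, 1 mean per group, no block, 8 residual degrees of freedom), two-sided; the fit was tested on simulated data. Exact permutation of 3 against 3 arrays reaches 0.1 at best and was not run. The 8 members and the 4 lists were chosen with earlier results of these data known. From each list the 3 genes called with the smallest p for TRAIL in parental cells were named, and for each member the 2 genes of nearest profile. Alternatives were median centring, quantile normalization, only the groups compared, array weights, a replicate block, the mean of all features, genes of lowest mean left out, a trend and each array left out. In the check of deviations, same-number correlations were 0.146 to 0.395 for TRAIL in TTR cells and −0.033 to 0.373 in the other comparisons. These ranges overlap and arrays of different numbers were not set beside them, so the check does not settle where arrays pair. Plots were made in Python 3.11.15 with matplotlib 3.10.9.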

Additional observations from a re-analysis of the deposited data

Results flagged for a closer look

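The TRAIL response differed between the lines for 6 of the 8 genes by limma's test of the difference, TTR change minus parental change on the log2 scale. The values were −2.03 for ZFP36, −0.63 for ZFP36L1, −1.50 for ZFP36L2, −1.22 for ZC3H12A, 0.62 for ZC3H12C and 0.99 for ELAVL1. Of all genes 37.2% were called in this test. The median of all features moved by 0.29 with TRAIL in parental and 0.11 in TTR cells. Median centring and quantile normalization each bring that shift to 0; the ZFP36L1 call was lost after the former (−0.44, adjusted p = 0.126) and the ZC3H12C call after the latter (0.49, adjusted p = 0.172).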

How the results depend on the processing

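The 40 changes of the 8 members, over 22 settings, gave 840 values, of which 798 kept their direction and side of the threshold, 19 lost the call, 12 gained one and 11 changed sign with no call. After median centring KHSRP changed sign with TRAIL in parental cells (−0.1564) and between lines with TRAIL (0.1258), and ZC3H12C (−0.069) and the listed gene FXR1 (−0.0876) did with TRAIL in TTR cells. KHSRP also did in the difference after quantile normalization (−0.052), and ELAVL1 between untreated lines with array weights (−0.0079). With 1 array left out, the range was −0.0127 to 0.0911 for ZC3H12C (−0.0039 without array 3 of TTR with TRAIL) and −0.0703 to 0.0905 for FXR1 (−0.0528 without array 2 of that group), both with TRAIL in TTR cells. It was −0.0378 to 0.0664 for ELAVL1 between untreated lines (−0.001 without parental untreated array 3), −0.1583 to 0.0419 for KHSRP between lines with TRAIL and −0.0109 to 0.2638 in its difference.

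Members called between untreated lines went from 0 to 1 with array weights, with the replicate block over all arrays and without the parental TRAIL arrays, and to 2 with the replicate block and these groups alone. For TRAIL in TTR cells that last fit gave 5 in place of 3, and the replicate block over all arrays 3. The fits without the parental TRAIL arrays and with the block in these groups alone were added after seeing the data. Leaving out 1 array gave 0 to 1 between untreated lines, 3 to 4 with TRAIL in TTR cells and 4 to 6 in the difference. In the comparisons other than TRAIL in TTR cells the same-number correlations were −0.033 to 0.373, which overlaps the range for TRAIL in TTR cells. Whether arrays pair by number is not settled by this check, and the labels do not state it. The block changed no other number of members called. Over all genes, TRAIL in TTR cells called 1072, against 2391 after median centring, 3199 with array weights, 2670 with the block in these groups alone, 1709 without the parental TRAIL arrays and 379 to 1487 with 1 array left out. Between untreated lines 1310 were called, against 2386 with array weights and 782 to 1553 with 1 array left out. The causes were not tested. Precision is limited by having 3 arrays in each group.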

Other observations

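Without TRAIL, when none of the 8 members was called by limma, 4 of the 33 transcripts with decay elements were higher in TTR than in parental cells, against 3.64% of all genes. These were IL6, an inflammatory cytokine (0.94 ± 0.13, adjusted p = 3.80e-04), PTGS2, the inducible prostaglandin synthase (0.93 ± 0.16, adjusted p = 0.00176), MYC (0.80 ± 0.10, adjusted p = 1.68e-04) and the plasminogen activator PLAU (0.64 ± 0.13, adjusted p = 0.00674). EGR1 was lower (−0.61 ± 0.12, adjusted p = 0.00391). Of the 31 decay machinery genes 5 were lower and 0 higher, against 3.47% and 3.64% of all genes: EXOSC4 (−0.81 ± 0.10), EXOSC5 (−0.53 ± 0.12), EXOSC3 (−0.39 ± 0.11) and DIS3 (−0.54 ± 0.13), of the RNA exosome, and the deadenylase subunit CNOT10 (−0.40 ± 0.09), with adjusted p from 1.35e-04 to 0.0393. Leaving out parental untreated array 1, 2 or 3 or TTR untreated array 2 or 3 left 3 of the 31 genes called lower in each case. Over all genes 782 to 1553 were called with 1 array left out, against 1310. All genes here were named after their values were seen.

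The arrays numbered 3 held the lowest ZFP36 signal in each of the 4 groups (4.875, 9.154, 5.130 and 7.344) and the lowest KHSRP signal in each (8.491, 8.615, 8.109 and 8.463). This was noticed in the data and was not tested.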
